A study of Homo sapiens with 12 samples.

Results

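Very wide constitutive open regions were stretches of chromatin that lay under ATAC-seq peaks in every library of the series and that reached 2000 bp or more once the peaks of all libraries were merged. Peaks of the 12 deposited lists that overlapped by at least 1 bp on chromosomes 1 to 22 and X were merged into 178040 regions. Of these, 24148 held a peak in 12 of 12 libraries, and 1275 of the 24148 (5.28%) were 2000 bp or wider. They were thus chosen by the presence and merged width of their peaks, both measured in these libraries. The other 22873 are called narrower constitutive regions here. The study asked how chromatin accessibility differed between MIAPaCa2 cells that are sensitive and resistant to oxamate, which inhibits lactate dehydrogenase A (LDHA), and how it responded to the drug. MIAPaCa2 is a cell line from a ductal adenocarcinoma of the pancreas. Parental cells and an oxamate-resistant polyclonal population, obtained by growth in 10 mM oxamate for 4 weeks, were each left untreated (vehicle) or treated with 10 mM oxamate for 24 h, which gave 4 groups of 3 libraries: parental untreated, parental treated, resistant untreated and resistant treated. All 4 groups were the same line grown in the same medium, and nothing in the labels says whether the 3 libraries of a group came from separate cultures, so the spread between them may be technical.

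In ATAC-seq the Tn5 transposase cuts and tags DNA where it is not wrapped in nucleosomes, so a peak marks open chromatin. A typical promoter opens a short gap between nucleosomes just before the start of the gene, and neighbouring openings merge into a wide region where several promoters, enhancers or stretches of heavily transcribed DNA lie side by side. Wide open regions are known from promoters of housekeeping genes, from clustered enhancers, from genes read by RNA polymerases I and III and from the bodies and ends of genes transcribed at very high rates.

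The promoters of 5 genes are shown because their genes start inside some of the widest regions or inside a region chosen by p. That p is from the comparison of resistant with parental cells, averaged over treatments. They are RefSeq sequences of GRCh38.p14 (the lists were made on hg38), read 5′ to 3′ on the strand of the gene, from 250 bases before to 50 bases after the listed start. Capitals mark the GC box GGGCGG or its complement CCGCCC, a motif known to be bound by SP and KLF factors. The first 4 belong to the 4 widest regions that hold a listed start of the coding gene they are named after, and ZNF584 to the region with the lowest p in the comparison of resistant with parental cells. ARHGDIA is on the minus strand (chr17:81871288-81871587). SLC35B2, a sulphate donor transporter of the Golgi, is on the minus strand (chr6:44257841-44258140). RNF168, a ubiquitin ligase of the DNA damage response, is on the minus strand (chr3:196503719-196504018). ANG, the ribonuclease angiogenin, is on the plus strand (chr14:20683927-20684226), and ZNF584, a zinc finger protein, is on the plus strand (chr19:58408399-58408698).
ARHGDIA: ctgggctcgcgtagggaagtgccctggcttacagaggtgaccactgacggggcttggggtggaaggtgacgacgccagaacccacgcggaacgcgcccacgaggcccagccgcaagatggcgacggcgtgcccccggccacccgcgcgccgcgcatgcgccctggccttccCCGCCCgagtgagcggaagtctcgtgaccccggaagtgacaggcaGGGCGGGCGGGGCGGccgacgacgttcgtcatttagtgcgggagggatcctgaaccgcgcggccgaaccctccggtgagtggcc
SLC35B2: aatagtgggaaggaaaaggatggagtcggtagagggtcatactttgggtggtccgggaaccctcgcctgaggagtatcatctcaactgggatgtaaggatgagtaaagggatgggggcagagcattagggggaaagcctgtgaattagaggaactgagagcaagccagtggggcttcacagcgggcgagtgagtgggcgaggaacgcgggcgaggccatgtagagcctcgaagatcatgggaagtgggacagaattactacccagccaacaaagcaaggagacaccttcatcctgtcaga
RNF168: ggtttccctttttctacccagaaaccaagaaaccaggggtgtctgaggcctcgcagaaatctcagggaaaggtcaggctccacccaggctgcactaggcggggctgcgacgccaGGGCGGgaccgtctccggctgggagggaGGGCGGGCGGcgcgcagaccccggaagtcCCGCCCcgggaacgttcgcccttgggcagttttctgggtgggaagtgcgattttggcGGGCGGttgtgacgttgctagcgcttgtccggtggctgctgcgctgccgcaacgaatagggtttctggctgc
ANG: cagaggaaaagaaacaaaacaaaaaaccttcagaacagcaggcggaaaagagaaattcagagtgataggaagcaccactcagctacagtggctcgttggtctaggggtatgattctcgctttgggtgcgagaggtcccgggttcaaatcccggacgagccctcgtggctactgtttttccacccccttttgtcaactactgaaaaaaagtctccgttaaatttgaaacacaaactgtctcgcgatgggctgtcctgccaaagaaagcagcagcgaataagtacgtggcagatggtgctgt
ZNF584: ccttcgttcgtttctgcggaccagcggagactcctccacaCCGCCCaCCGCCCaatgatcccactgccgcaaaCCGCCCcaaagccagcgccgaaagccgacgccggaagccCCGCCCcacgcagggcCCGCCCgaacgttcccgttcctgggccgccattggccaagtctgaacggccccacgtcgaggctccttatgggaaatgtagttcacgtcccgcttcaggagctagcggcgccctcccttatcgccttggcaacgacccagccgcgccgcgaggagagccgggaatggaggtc
The ARHGDIA window had 39 CpG dinucleotides and 4 GC boxes on either strand, overlapping ones included, RNF168 had 25 and 5, and ZNF584 had 34 and 5. The SLC35B2 and ANG windows held no GC box, with 10 and 13 CpGs. The ANG window contains a whole transfer RNA gene, TRP-TGG3-2 (chr14:20684016-20684087). In its region 2888 bases lay before the ANG start and 713 after it, whereas the ARHGDIA region reached 846 bases before the start and 4784 bases after it, over the entire short gene. The SLC35B2 region held only 71 bases before the start and 3674 after it, so most of the printed SLC35B2 window lay outside it.

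Across all 846 coding genes with a listed start in a very wide region, the same 300-base window had a median GC content of 70.3% and a median of 31 CpGs, against 66.0% and 27 for 8229 genes starting in narrower constitutive regions and 56.7% and 8 for 6737 genes that start in neither. A GC box stood in 77.7% of the windows in very wide regions, in 75.1% of those in narrower regions and in 59.6% of all 15812 coding promoters. The CCAAT box (CCAAT on either strand) went the other way, with 27.5% in very wide regions, 39.2% in narrower regions and 36.5% of all promoters. The ETS motif CCGGAAG, also on either strand, was in 13.9%, 22.9% and 14.4%, the TATA box TATAAA in 6.50%, 4.18% and 9.40%, and the AP-1 motif TGANTCA, which reads the same on both strands, in 4.73%, 3.76% and 5.74%. These shares describe windows of equal length, with 1 window per gene, and no binding was measured.

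Most very wide regions lay at promoters. A listed start of a protein-coding gene was inside 737 of the 1275 (57.8%), against 33.5% of the narrower regions. Starts of 2 or more coding genes shared 106 of them (8.31%, against 3.93% of narrower regions), and 96 held starts on both strands. Another 122 (9.57%) lay inside a coding gene away from its ends, against 23.6% of the narrower ones, and 159 (12.5%) lay elsewhere, against 25.8%. The remaining regions were at the 3′ end of a coding gene (52), at an end of a coding gene whose strand was not listed (115), at an end of another kind of gene (76) or within 1 kb of a start (14). Width is the property that chose these regions, and wider stretches meet more genes, so these shares describe the set.

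The width was made of a smaller shared part and of edges that only some libraries reached. The median width was 2249 bp, the 90th percentile 2845 bp and the largest 6323 bp, and the 1275 regions summed to 3.03 Mb. The part covered in all 12 libraries had a median of 545 bp, or 23.9% of the merged width, and a median of 1558 bp was covered in 6 or more libraries. In 493 regions (38.7%) there were 2 separate shared parts and in 112 (8.78%) there were 3 or more, whereas 91.9% of the narrower regions had a single one. Wider regions have room for more shared parts, so this contrast follows in part from the rule. In 74 regions no base was shared by all 12 libraries. No single library spanned 2000 bp in 222 regions, and 138 regions spanned 2000 bp in each of the 12. At the threshold, ECE1, PNKD and XXYLT1 were just inside with 2000 bp each, and AKNAD1, HIPK1 and TMEM131L were just outside with 1999 bp each. Covered bases of PNKD ran from 829 to 1921 over the libraries and those of HIPK1 from 913 to 1939, so this pair had similar ranges on either side of the threshold.

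At every kind of place, very wide regions had a lower fold than narrower regions there. As a mean over the peak, the fold is not independent of the width that chose the regions. Height is given as the fold over local background that the authors' peak caller averaged over a peak, taken from the highest peak of the region and then as the median of 12 libraries. Regions at a coding start had a median fold of 5.13 (middle 50% from 4.54 to 5.87), below the 6.86 of narrower regions at a start, and those at 3′ ends below the 5.28 of narrower ones there. Inside coding genes the medians were 4.28 in very wide and 5.45 in narrower regions, and elsewhere 4.43 and 5.52. Very wide regions at a 3′ end had 3.63 (3.14 to 4.46) although their median width, 2518 bp, was above the 2232 bp of regions at starts. Ordered within each list by −log10 q, the strongest peak of a region at a start stood at a median of 21.3% from the top. That of a region at a 3′ end stood at 40.4%, against 12.5% and 27.7% in narrower regions at these places. By this order very wide regions stood nearer the top within 1 kb of a start (20.7% against 27.1%) and at ends of other genes (21.7% against 24.3%). The same held elsewhere (27.6% against 30.4%).

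**Figure D1:**
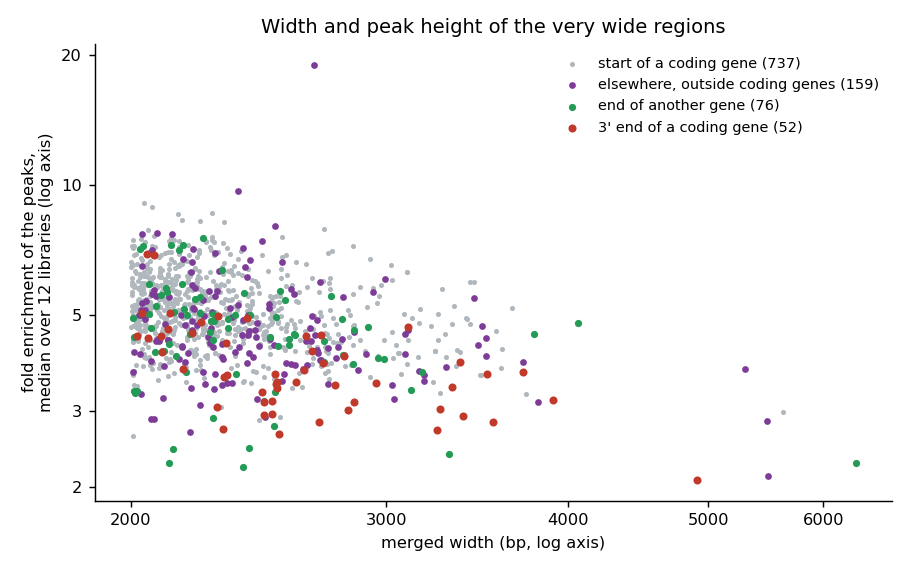
Merged width of very wide regions (x axis, bp, log scale) against the fold enrichment of their highest peak, median over 12 libraries (y axis, log scale), for 4 of the kinds of place. Each point is 1 region. Regions at 3′ ends of coding genes sit low, around their median fold of 3.63, and the 6323 bp region at NEAT1 has a fold of 2.27, while regions at starts gather below 3000 bp around 5.13.

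The 52 regions at 3′ ends included genes known for rapid induction or for very high transcription: FOSB (4909 bp), FOS (3387 bp) and EGR1 (3253 bp), which encode immediate-early transcription factors, EEF1A1 (3908 bp), the translation elongation factor, H3-3B (3554 bp), a replication-independent histone H3, SLC38A2 (3371 bp), an amino acid transporter, SGK1 (3331 bp), a stress-induced kinase, and GAPDH (2530 bp) and ENO1 (2633 bp), glycolytic enzymes. The chaperones HSPA8, HSPA5 and DNAJB1 were also among them with 2712, 2703 and 2501 bp. These names came from the place of the regions and from no expression value.

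At FOSB (chr19:45471777-45476685) peaks covered 4568, 4124 and 3713 bp in the 3 parental untreated libraries, 2635, 4034 and 3227 bp in parental treated, 4568, 4909 and 3485 bp in resistant untreated and 4074, 3336 and 3532 bp in resistant treated cells. All 4 groups overlapped, and neither the log2 difference between resistant and parental cells (0.11 ± 0.13 SE, limma adjusted p = 0.492) nor that between treated and untreated parental cells (−0.34, limma adjusted p = 0.228) passed the test. At ENO1 (chr1:8857605-8860237) the values were 967, 1229 and 544 bp, then 542, 267 and 242 bp, then 2243, 1178 and 1540 bp, and 1061, 835 and 970 bp in the same order of groups. There the treated parental libraries were below all others, and resistant exceeded parental cells by 1.21 ± 0.26 on the log2 scale (limma adjusted p = 0.0135).

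In the regions classed at 3′ ends, openness was displaced beyond the gene. For the 30 such regions with 1 listed 3′ end, bases under peaks within 3000 bp were counted on both sides of that end. Regions with a coding start inside or within 1 kb were classed at starts instead, and 40 very wide regions held both a start and a 3′ end. Regions that reached back over a short gene to its start are thus left out, which favours the downstream side. In parental untreated cells a mean of 571 ± 56 bp (SD, n = 3) per region lay before the end and 1298 ± 82 bp after it. Resistant untreated cells had 566 ± 81 bp before and 1573 ± 113 bp after it. In all 12 libraries between 67.0% and 75.7% of the bases were downstream. Around the 473 starts of regions with 1 listed start the 2 sides were near balance, with 42.6% to 51.7% after the start, and the share was lower in the parental treated libraries (44.1% ± 1.3, SD, n = 3) than in the parental untreated (47.8% ± 2.0), resistant untreated (50.5% ± 0.73) and resistant treated ones (50.8% ± 0.94). The 3 parental treated values, 42.6%, 45.0% and 44.7%, lay below the 3 parental untreated values, 48.8%, 49.1% and 45.5%.

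**Figure D2:**
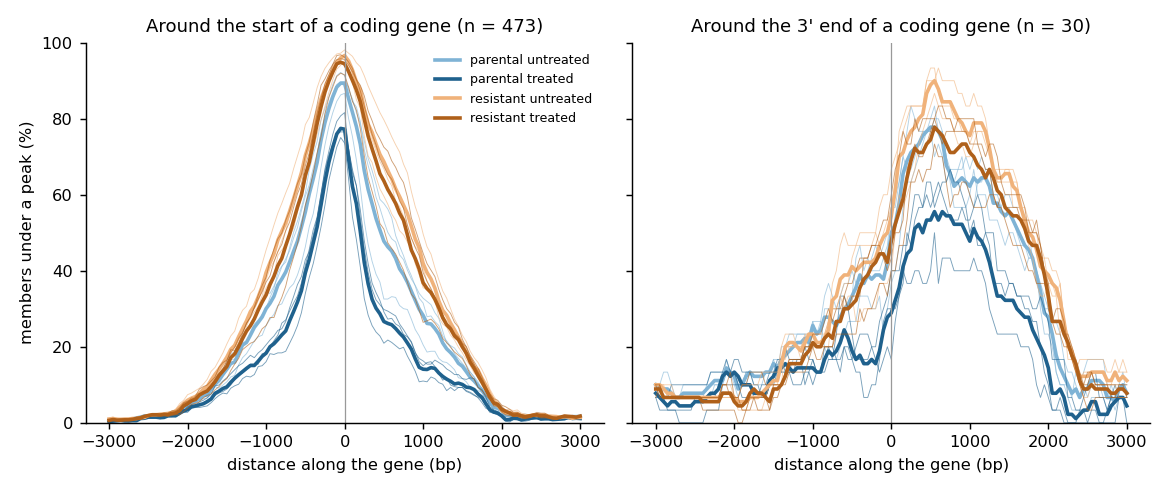
Share of very wide regions under a peak (y axis, percent) by distance along the gene (x axis, bp, positive downstream) around 473 coding gene starts (left) and 30 coding gene 3′ ends (right). Thin lines are libraries and thick lines the mean of 3 libraries per group. Profiles at starts peak within 50 bp of the start, those at 3′ ends 250 to 750 bp beyond the end, and the parental treated means are the lowest there in both panels.

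Genes for non-coding RNA carried some of the widest regions. NEAT1, the scaffold RNA of nuclear paraspeckles, had 3 of them: 6323 bp at 1 end of the gene (chr11:65443214-65449536), the widest of all, 2021 bp at the other end (chr11:65421208-65423228) and 2475 bp inside (chr11:65426225-65428699). In the widest, peaks covered 3202, 2806 and 1772 bp in parental untreated, 109, 959 and 667 bp in parental treated, 5208, 3620 and 3775 bp in resistant untreated and 3455, 2857 and 3165 bp in resistant treated libraries. Parental treated cells were below every other library, with a log2 difference from untreated of −2.61 ± 0.65 SE (limma adjusted p = 0.0419), and resistant exceeded parental cells by 1.83 ± 0.46 (limma adjusted p = 0.0210). Over the region inside NEAT1 the values ran from 1614 to 2433 bp. A 3177 bp region lay at MALAT1, a nuclear long non-coding RNA, and its antisense gene TALAM1, with 1835 to 3036 bp covered and no difference past the test.

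Genes for transfer, small nuclear and ribosomal RNA were present too. Whole transfer RNA genes lay in 16 very wide regions (1.25%, against 0.660% of narrower regions), 34 genes in all, 4 of them together in a 3119 bp region (chr17:8220684-8223802), 4 in a 3100 bp region (chr17:8118096-8121195) and 3 beside ANG. Small nuclear RNA genes lay in 6 (0.471%, against 0.214%): RN7SK, RNU5E-1, RNU2-2, the pair RNU4-1 and RNU4-2, LOC124904139 and LOC124904147. Ribosomal DNA on chromosome 21 had wide regions at RNA45SN1, RNA45SN2 and RNA45SN3, the precursors of the large ribosomal RNAs. The RNA45SN1 region (3315 bp) had one of the 5 largest shared parts, 2477 bp in all 12 libraries. Its covered bases ran from 2593 to 3225 bp, and the log2 difference between resistant and parental cells was −0.03 ± 0.07 SE. The ribosomal DNA copies are nearly identical, and reads without a unique place were removed, so the values of a single copy are uncertain.

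A very wide region lay at 1174 of 19974 coding genes (5.88%), or at 9.99% of the 11755 coding genes with any constitutive region. Of the genes with a constitutive region, a very wide one lay at 52.2% of AP-1 and immediate-early genes, 44.2% of histone genes and 31.6% of heat-shock genes, but at 8.33% of cell cycle genes, 7.69% of ID, HES and SMAD feedback genes and 5.13% of ribosomal protein genes, as a description with no test. The counts that follow are over all listed genes. Of 24 AP-1 and immediate-early genes, 12 had one (50%), among them JUN, FOSL2, DUSP1 and MCL1 besides FOS, FOSB and EGR1. Replication-dependent histones had one at 19 of 50 genes (38.0%), with several histone genes in 1 region, such as H2AC16 with H1-5 (2675 bp) and H2BC11 with H2AC11 (2583 bp). Heat-shock and chaperone genes followed with 6 of 20 (30.0%), actin, tubulin and cytoskeletal genes with 5 of 20 (25%), glycolysis and lactate genes with 5 of 24 (20.8%: PFKFB3, TPI1, GAPDH, ENO1 and ENO2), RNA-binding and splicing genes with 6 of 29 (20.7%), chromatin regulators with 7 of 34 (20.6%) and translation factors with 3 of 18 (16.7%). Cytosolic ribosomal protein genes, although 78 of 79 had a constitutive region, had a very wide one at 4 (5.06%), and none of 21 pancreatic lineage transcription factors did, 9 of which had a constitutive region. The smaller counts were 3 of 20 long non-coding and snoRNA host genes, 2 of 14 mesenchymal genes (ZEB1 and LOXL2), 2 of 17 KLF and SP factors, 2 of 18 NRF2 and stress response genes, 2 of 25 cell cycle genes, 2 of 39 HOX genes, 1 of 14 epithelial genes (KRT8) and 1 of 14 ID, HES and SMAD feedback genes. The mesenchymal and epithelial markers VIM, KRT8 and KRT18 had peaks in 12 libraries, and CDKN2A and MTAP, which this line is known to have lost, had 0 peaks. The listed spans of KRT8 and KRT18 overlap. Any constitutive region lay at 7 of the 14 mesenchymal and 8 of the 14 epithelial genes.

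Far from genes, a few regions were both wide and strong. On chromosome 1, 6 lay between positions 143191572 and 143264812, 34706 to 105044 bp from the nearest listed gene (LOC101929814), and all 6 ranked in the top 5% of their lists. The widest of the 6, 5297 bp (chr1:143213925-143219221), had 3041, 3073 and 3081 bp covered in parental untreated, 4100, 3517 and 3192 bp in parental treated, 3381, 3872 and 2626 bp in resistant untreated and 3331, 3463 and 3374 bp in resistant treated libraries. The 3 parental treated values were above the 3 parental untreated ones, by 0.23 on the log2 scale (limma adjusted p = 0.297), and the 2 resistant groups overlapped each other. The strongest region of the whole set (chr4:49709239-49711912, nearest listed gene SNX18P25) had a fold of 19.0. It lay 119511 bp from that gene. How reads were assigned there and in the 6 regions on chromosome 1 was not tested, so their openness is uncertain.

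Peaks covered less of the very wide regions in parental than in resistant cells. The share of the summed merged width under peaks was 65.4%, 65.9% and 52.2% in parental untreated, 36.4%, 47.2% and 43.7% in parental treated, 85.6%, 70.1% and 74.4% in resistant untreated and 78.6%, 60.1% and 74.2% in resistant treated libraries. Per region this was a mean of 1230 ± 283 bp (SD, n = 6) in parental and 1753 ± 203 bp (n = 6) in resistant libraries. The phenotypes overlapped, since resistant treated replicate 2, with 1427 bp, was below parental untreated replicates 1 and 2, with 1554 and 1566 bp. Narrower regions went from 57.8% ± 9.7 covered in parental to 74.8% ± 6.7 in resistant libraries, and very wide regions from 51.8% ± 11.9 to 73.8% ± 8.5. Very wide regions nevertheless held a steady 7.23% to 8.52% of all bases under peaks in a library.

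Very wide regions were more often broken into several peaks than narrower ones. A region counted as split in a library when it held 2 or more separate peaks there. Of the 1275 regions, 94.8% were split in at least 1 library against 19.8% of the narrower ones, 66 were a single peak in 12 of 12 libraries, and 12 were split in all of them. The rule chose by merged width, and 2 peaks with a gap need room. The contrast with narrower regions therefore follows in part from the rule and describes the set. The libraries had 54.6%, 53.5% and 67.0% of the very wide regions split in parental untreated, 64.7%, 68.9% and 55.6% in parental treated, 12.6%, 44.5% and 32.3% in resistant untreated and 26.6%, 53.0% and 34.3% in resistant treated cells. The mean number of peaks per region was 1.76 ± 0.12 (SD, n = 6) in parental and 1.37 ± 0.17 (n = 6) in resistant libraries. All 6 resistant libraries had fewer split regions than all 6 parental ones, although resistant treated replicate 2, at 53.0%, was close to parental untreated replicate 2, at 53.5%.

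The distance at which the authors' caller stopped joining peaks moved with this order. In every list the smallest gap between 2 peaks was 4.01 to 4.06 times the smallest peak width, so that no gap below 269 to 349 bp was left in a parental list and none below 378 to 497 bp in a resistant list. The smallest widths, which in paired-end calling follow fragment length, were 67 to 87 bp and 94 to 124 bp and did not overlap between phenotypes. When peaks closer than 497 bp were joined in every list, 37.2% ± 5.7 (SD, n = 6) of the very wide regions remained split in parental and 23.3% ± 7.6 in resistant libraries, and the ranges, 29.5% to 43.3% and 12.6% to 34.9%, then overlapped. Covered bases with those gaps filled were 1370 ± 280 bp and 1811 ± 167 bp. Fragment length and phenotype cannot be told apart beyond this.

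**Figure D3:**
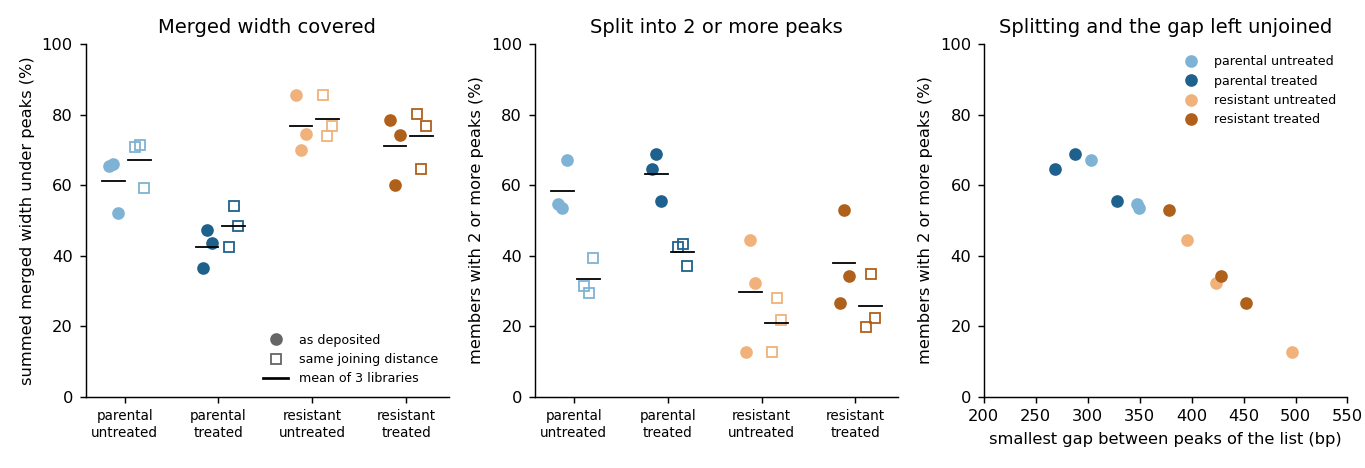
Left and middle, share of the summed merged width under peaks and share of the 1275 regions split into 2 or more peaks (y axes, percent) in the 12 libraries by group. Filled circles use the lists as deposited, open squares lists joined at 1 distance, and bars are means of 3 libraries. Right, the share split against the smallest gap between peaks in the list (bp). The highest share, 68.9%, belongs to a list with a smallest gap of 288 bp and the lowest, 12.6%, to the list with 497 bp, and joining at 1 distance brings the 2 phenotypes closer.

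No single region was called as split more or less often in 1 phenotype. Fisher's exact test of split libraries, 6 resistant against 6 parental, was run on the 950 constitutive regions split in 5 to 7 libraries, 346 of them very wide. None had an adjusted p under 0.05 (the smallest was 0.0623), and 58 of the 346 (16.8%) were less often split in resistant libraries at an unadjusted p under 0.05, none more often. Among all 950 the share was 19.5%, so very wide regions were close to the background. The count turned on single libraries, because without resistant treated replicate 2 the adjusted test called 115 of 360 very wide regions less often split. It called 20, 15, 14, 15 and 13 without parental untreated replicates 1 or 2, parental treated replicates 1 or 3 or resistant untreated replicate 2. Between treated and untreated libraries no region was called and the smallest adjusted p was 1, with 1 of the 346 more often split in treated libraries at an unadjusted p under 0.05 (background 0.316%) and 0 less often (background 0.421%). The most fragmented regions were CDRT15P9 (3 to 6 peaks), the 5297 bp region on chromosome 1 (1 to 5), TRIM8 (1 to 5), MIR10396A (1 to 4) and C1QTNF6 (1 to 4). VMP1, DEFB115, DNAAF2 and ZBTB1 were the 4 widest that were 1 peak in all 12 libraries, with 2765 to 2456 bp.

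Between resistant and parental cells, averaged over treatments, 666 of 1275 very wide regions (52.2%) had more bases under peaks in resistant cells by limma on log2 covered bases (adjusted p under 0.05), against a background of 27.5% of all 24148 constitutive regions. None had fewer (background 0.157%), while 5 did at an unadjusted p under 0.05 (0.392%, against 0.360% of all constitutive regions). The median log2 difference was 0.55 in very wide regions and 0.39 in all constitutive regions. After each library was centred on its own median over all constitutive regions, which removes the general shift, 130 were higher (10.2%, background 2.81%) and 47 lower (3.69%, background 4.78%). The rule used merged widths of these same libraries, and a resistant library alone set 63.1% of the 2550 outer edges against 33.7% set by parental ones, so the count cannot be read as evidence about width itself. Of the 399 regions that the parental libraries alone would have chosen, 39.1% were higher in resistant cells. With the smallest peak width as a covariate 0 of 1275 were called, and with relative depth as one 10 were (0.784%), so the phenotype cannot be told apart from these properties of the lists. The share called was 31.1%, 25.3%, 26.4% and 29.4% without parental untreated replicate 3, resistant untreated replicate 1, resistant treated replicate 1 or resistant treated replicate 3.

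ITPR3, an inositol trisphosphate receptor of the endoplasmic reticulum, showed a difference in both treatments. Peaks covered 1307, 1128 and 1508 bp at its start in parental untreated, 746, 671 and 899 bp in parental treated, 2293, 1902 and 2092 bp in resistant untreated and 2205, 1826 and 2300 bp in resistant treated libraries (chr6:33620028-33622327). All 6 resistant values were above all 6 parental ones, and the log2 difference was 1.07 ± 0.11 SE (limma adjusted p = 0.000789). This was 1 of 105 very wide regions (8.24%, background 4.96%) whose resistant libraries did not overlap the parental ones. No very wide region had the reverse order (background 0.0248%).

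SMOX, the polyamine-degrading spermine oxidase, had 1251, 766 and 859 bp, then 233, 281 and 301 bp, then 1474, 1481 and 1357 bp, and 1829, 1044 and 1821 bp in that order of groups. The log2 difference was 1.55 ± 0.17 SE (limma adjusted p = 0.00107), although resistant treated replicate 2 fell below 1 parental untreated library. KRT8, a keratin of simple epithelia, had 1164, 1491 and 1453 bp, 680, 481 and 339 bp, 2900, 1855 and 2587 bp, and 2131, 1256 and 1797 bp, and a log2 difference of 1.32 ± 0.20 SE (limma adjusted p = 0.00384). The remaining leaders by p were ZNF584 (0.73 ± 0.06), CYTH1 (0.84 ± 0.08) and PPP4R1 (1.78 ± 0.18), whose values follow with the response to treatment. In each of them the untreated libraries of the phenotypes overlapped, and the parental treated libraries were below all others. Their averaged differences therefore include the response of parental cells to treatment.

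NFE2L2, which encodes the stress regulator NRF2, was at the stable end: 1742 to 2079 bp of its 2093 bp region were covered in every library as a single peak, with a log2 difference of 0.06 ± 0.06 SE (limma adjusted p = 0.376). The 2 regions with the lowest p towards fewer bases in resistant cells were a 2512 bp region at LOC107986214 (chr4:49512595-49515106, −1.33 ± 0.45 SE, limma adjusted p = 0.0504) and a 2903 bp region nearest to LOC101929814 (chr1:143191572-143194474, −0.35 ± 0.12 SE, limma adjusted p = 0.0525). The latter had 2069, 1597 and 2465 bp, 2184, 2903 and 2101 bp, 1824, 1831 and 1596 bp, and 1586, 1840 and 1608 bp, so that 1 parental untreated library was within the resistant range. How reads were assigned in these 2 regions was not tested.

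By gene list, resistant cells were higher at 6 of 13 regions of AP-1 and immediate-early genes (median log2 difference 0.34), 7 of 10 regions of histone genes (0.41), 4 of 8 of chromatin regulators (0.48), 3 of 8 of heat-shock genes (0.30), 2 of 6 of glycolysis and lactate genes (0.42), 2 of 6 of cytoskeletal genes (0.52), 4 of 7 of RNA-binding and splicing genes (0.50) and 3 of 4 of ribosomal protein genes (0.89). None was lower. Over all very wide regions the share higher was 52.2% and the median 0.55, and over all constitutive regions 27.5% and 0.39, so most lists were near or below the very wide regions as a whole. BRD2, a bromodomain reader of acetylated histones, was higher by 0.33 ± 0.07 SE (limma adjusted p = 0.0132), but its sign turned after centring (−0.11). PFKFB3, which makes the allosteric activator of glycolysis, was higher by 0.55 ± 0.13 (limma adjusted p = 0.0194), and ZEB1, a transcription factor of mesenchymal cells, by 0.76 ± 0.18 (limma adjusted p = 0.0187). GAPDH, at 0.43 ± 0.38 (limma adjusted p = 0.351), did not pass.

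In parental cells treated with oxamate the bases under peaks were lower than in untreated ones at 184 of the 1275 regions (14.4%, background 6.87%) and higher at none (background 0.0166%, 1 region or 0.0784% at an unadjusted p under 0.05, against 0.166%). The median log2 difference was −0.56 against −0.39 over all constitutive regions, and at 524 regions (41.1%, background 30%) the 3 treated libraries were all below the 3 untreated ones. In 3 regions (background 0.464%) they were all above. After centring, 27 were lower (2.12%, background 0.526%) and 0 higher (background 0.0373%). Merged widths of these same libraries chose the regions here too. Parental untreated libraries set 10.1%, 9.27% and 5.25% of the outer edges and parental treated ones 2.84%, 5.14% and 2.73%, with shared edges divided. The excess over the background therefore cannot be read as evidence about width itself. The share lower was 4.94%, 4.00%, 22.3%, 7.69% and 23% without parental untreated replicates 1, 2 or 3 or parental treated replicates 1 or 2. The treated parental lists had relative depths of 1.66 to 2.77 and smallest peak widths of 67 to 81 bp, the untreated 1.33 to 1.77 and 75 to 87 bp, and with depth or smallest width as a covariate 3.22% and 4.86% were lower. By place, 12 of 52 regions at 3′ ends (23.1%, against 5.89% of narrower regions at 3′ ends) and 99 of 737 at starts (13.4%, against 7.38%) were lower.

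PPP4R1, a regulatory subunit of protein phosphatase 4, had the largest log2 loss among the leaders. Its 2010 bp region (chr18:9613629-9615638) had 1116, 953 and 1573 bp covered in parental untreated and 95, 116 and 109 bp in parental treated cells, but 1802, 1207 and 995 bp in resistant untreated and 1258, 1288 and 928 bp in resistant treated cells. The 3 treated parental libraries stood apart, each with 1 peak, and the log2 difference from untreated was −3.48 ± 0.25 SE (limma adjusted p = 0.000272). Those peaks were near the smallest peak widths of the parental treated lists, 67 to 81 bp, so the size of the log2 difference is uncertain.

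ZNF584 (chr19:58407756-58409874) had 1585, 1751 and 1702 bp, then 652, 665 and 767 bp, then 1804, 1950 and 1725 bp, and 1799, 1788 and 1657 bp. The region was 1 peak in the 9 other libraries and 2 in the 3 parental treated ones, and the log2 difference with treatment in parental cells was −1.28 (limma adjusted p = 0.000272). CYTH1, an exchange factor for ARF proteins (chr17:78780885-78783555), had 1740, 1980 and 1603 bp, 577, 524 and 509 bp, 2419, 1886 and 1991 bp, and 1390, 1526 and 1461 bp, with a difference of −1.72 (limma adjusted p = 0.000272). Here the resistant treated libraries were also below the resistant untreated ones. ECPAS, a proteasome adaptor, and ZNF398, a zinc finger factor, fell by 1.44 and 0.81 (limma adjusted p = 0.00229 and 0.00250).

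The 184 held regions of listed genes, of which 4 are given. RPL13, a ribosomal protein gene, had 2118, 2200 and 1670 bp in parental untreated and 586, 606 and 224 bp in parental treated cells at its 3′ end, and 1726 to 2228 bp in every resistant library (−2.20, limma adjusted p = 0.00603). DNAJB1, a heat-shock cochaperone, went from 2084, 2158 and 2132 bp to 1141, 1319 and 1016 bp (−0.88, limma adjusted p = 0.00292). EGR1 went from 2612, 2638 and 2371 bp to 1592, 1857 and 1638 bp (−0.58, limma adjusted p = 0.0294), and ACTB, the cytoskeletal actin, from 3941, 2096 and 2332 bp to 845, 1528 and 602 bp (−1.54, limma adjusted p = 0.0301). In all 4 the treated values were below all untreated ones. By list, 4 of 8 regions of heat-shock genes, 3 of 13 of AP-1 and immediate-early genes, 2 of 6 of cytoskeletal genes and 2 of 8 of chromatin regulators were lower, as were 1 of 4 of ribosomal protein genes, 1 of 7 of RNA-binding and splicing genes, 1 of 4 of long non-coding and snoRNA host genes and the 1 of epithelial genes (KRT8). None of 10 of histone genes or of 6 of glycolysis genes passed. Over all very wide regions the share lower was 14.4%, and over all constitutive regions 6.87%.

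**Figure D4:**
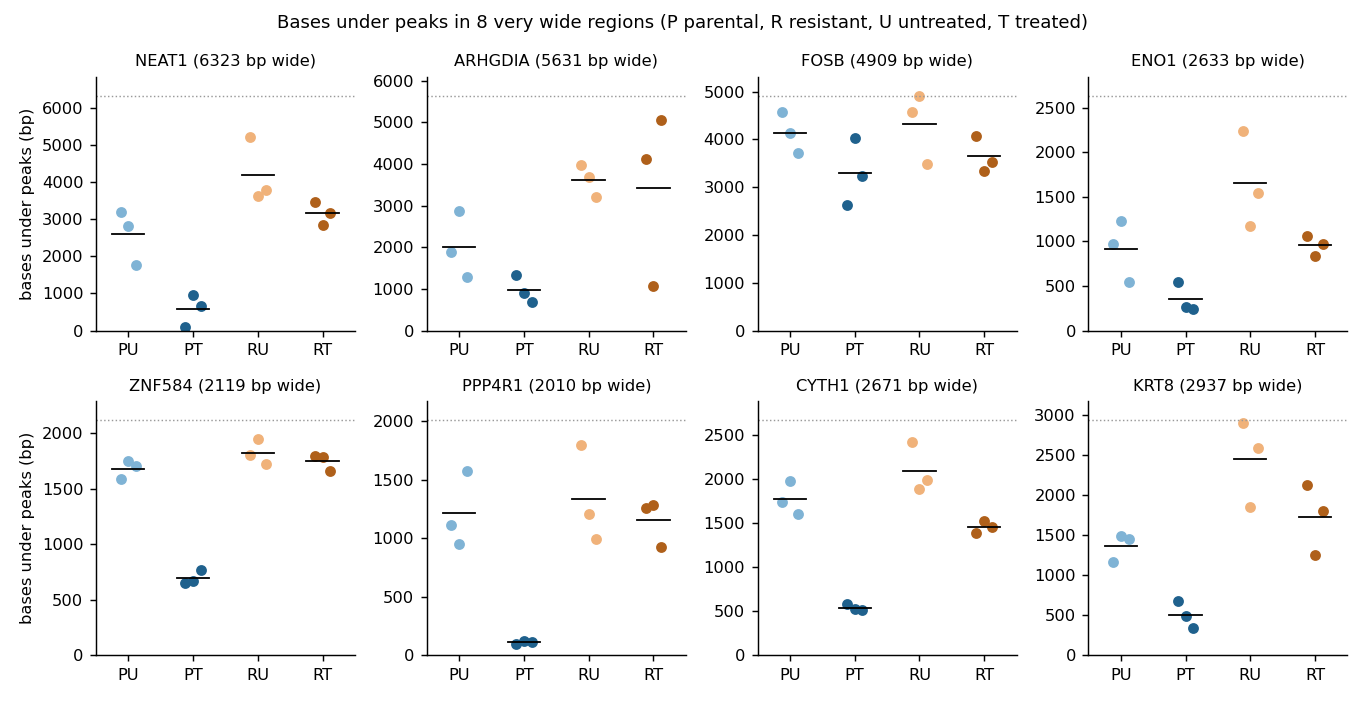
Bases under peaks (y axis, bp) in the 12 libraries at 8 very wide regions. Points are libraries, solid bars means of 3 libraries (P parental, R resistant, U untreated, T treated) and the dotted line the merged width. At PPP4R1, ZNF584, CYTH1 and NEAT1 the 3 parental treated libraries lie below the 9 others, whereas at FOSB the groups overlap.

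In resistant cells no very wide region differed with treatment at an adjusted p under 0.05 by limma (background 0 in either direction). At an unadjusted p under 0.05, 39 were lower (3.06%, against 1.90% of all constitutive regions) and 2 higher (0.157%, against 0.447%), and the median log2 difference was −0.10 against −0.06 over all constitutive regions. All 3 treated libraries were below all 3 untreated ones at 93 regions (7.29%, background 5.64%) and above them at 5 (background 1.65%). The lowest p among lower regions belonged to PRDM8, with 2094, 2007 and 1603 bp untreated and 1326, 1104 and 1045 bp treated, and COMTD1, with 2089, 1977 and 2036 bp untreated and 1531, 1310 and 1519 bp treated. Both regions also fell in parental cells, by 0.82 and 0.62 on the log2 scale (limma adjusted p = 0.00728 and 0.00854). ZYX, a focal adhesion protein, had 1328, 1301 and 1273 bp untreated and 1919, 1297 and 1929 bp treated, so the treated values did not separate.

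The treatment effects of the 2 phenotypes differed at 7 very wide regions (0.549%, background 0.344%), all with a smaller loss or a gain in resistant cells. None differed in the other direction (background 0.00414%), with 4 regions at an unadjusted p under 0.05 (0.314%, against 0.373%). The count was 2 after centring (background 0.0248%) and 0 with relative depth as a covariate, without the log or with the replicate number as a block. The largest was PPP4R1, where the log2 effect in resistant cells exceeded that in parental cells by 3.31 ± 0.35 SE (limma adjusted p = 0.0102), followed by LCMT1P1 (1.74 ± 0.28, limma adjusted p = 0.0397), SH2B2 (1.73 ± 0.30, limma adjusted p = 0.0481) and ECPAS (1.40 ± 0.23, limma adjusted p = 0.0428). The count was 47, 21 and 19 without parental treated replicate 2, parental untreated replicate 3 or parental treated replicate 3. It was 4 without resistant untreated replicate 1, and 2 without parental untreated replicates 1 or 2, resistant untreated replicates 2 or 3, or resistant treated replicates 1 or 3. The effects of the 2 treatments use separate controls, and the median difference between them was 0.44 in very wide regions and 0.31 over all constitutive regions.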

How the data were processed

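ATAC-seq was measured in 12 libraries of MIAPaCa2 cells, 3 in each of 4 groups taken from the sample labels. The authors aligned reads to hg38 with Bowtie2 2.1.0, discarded reads that were mitochondrial, duplicated or not uniquely placed, and ran MACS2 on read pairs of each library to obtain broad peaks. The MACS2 version, cutoffs, control and any blacklist of problem regions are not given in the sources used here. The deposited lists give for each peak a score, a fold over local background (a ratio), a −log10 p-value and a −log10 q-value, and the smallest −log10 q was 1.00. They hold no read counts, so depth is unknown. Lists had 46401 to 63259 peaks. Relative depth (1.00 to 2.77) was estimated from the background that the smallest peaks imply.

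Of 677901 peaks, 0.892% on other sequences were left out. Genes within 1 kb were taken from RefSeq tables of GRCh38.p14, in which 4162 coding genes had no listed start. Covered bases (log2, all 24148 constitutive regions, no missing values) were tested with limma 3.58.1 with a mean trend and Benjamini-Hochberg adjustment. Splitting was tested with the two-sided Fisher's exact test. Analyses ran in Python 3.11.15, scipy 1.17.1 and R 4.3.3, and both tests were checked on simulated data. Alternatives covered thresholds, scaling, covariates, joining and each library left out.

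The members and the gene lists were chosen with earlier results of these data known. Named were the 10 widest regions, 3 on either side of the threshold, up to 5 of lowest p per comparison and direction, 5 with most peaks, 5 widest single peaks (1 is not reported here), 5 with the largest shared part and up to 4 per gene list. The other 3′-end, RNA gene and strongest regions, and the condition that a printed promoter's start lies inside its region, were chosen after values were seen.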

Additional observations from a re-analysis of the deposited data

Results flagged for a closer look

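At 7 very wide regions the log2 effect of treatment differed between phenotypes by limma's interaction term (adjusted p under 0.05). Resistant minus parental, the difference was 1.21 at ZNF584, 3.31 at PPP4R1, 1.20 at CYTH1, 1.74 at LCMT1P1, 0.81 at ZNF398, 1.40 at ECPAS and 1.73 at SH2B2. With each library left out in turn, ZNF584 and PPP4R1 stayed under 0.05 in 12 of 12 fits and the other 5 in 3 to 5 of 12. With relative depth as a covariate, with the replicate number as a block or without the log none of the 7 passed. After centring PPP4R1 and LCMT1P1 did. At PPP4R1 the parental treated values were near the smallest peak width, and without the log its limma adjusted p was 0.355. LCMT1P1, nearest gene of a region outside genes, had 1717, 1778 and 1481 bp in parental untreated, 565, 747 and 766 bp in parental treated, 1744, 1219 and 1146 bp in resistant untreated and 2098, 1468 and 2119 bp in resistant treated cells.

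Sequences outside chromosomes 1 to 22, X and Y, which no comparison used, held 19 further regions of 2000 bp or more with a peak in 12 of 12 libraries. They were among 177 constitutive regions on 10 such sequences, and the widest was 4084 bp.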

How the results depend on the processing

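Very wide regions numbered 810 at a −log10 q minimum of 3, 4308 from 1500 bp, 92 from 3000 bp, 205 where peaks covered at least 50% in each library, 138 with a span of 2000 bp in every library, and 1035 to 1310 with each library left out. Joining peaks up to 150 bp apart could change nothing within a list, whose gaps were all wider. The share higher in resistant cells was 10.2% after centring, 13.5% by span, 0% and 0.784% with smallest peak width or relative depth as a covariate, 30.0% at the same joining distance and 25.3% to 58.0% with a library left out, and the share lower was 3.69%, 0.392% by span, 0.314% at the same joining distance and 0% to 0.235%. The share lower in treated parental cells was 2.12% after centring, 5.10% without the log, 5.80% by span, 4.86% with smallest width, 3.22% with depth, 8.70% among regions spanning 2000 bp in every library and 4.00% to 23% with a library left out. The interaction share was 0.157% after centring, 0.931% with the stricter q, 0% without the log, 0.235% without the trend, 0.941% by span, 0% with depth, 0.941% at the same joining distance and 0.157% to 3.69% with a library left out. With the replicate block these shares were 9.33% for parental treatment and 0% for the interaction. Region by region, deviations of same-numbered libraries from their group means correlated at −0.09 to 0.15. These correlations leave out any shift of a whole library, so they cannot decide whether the numbers pair the libraries. Mean covered bases fell from replicate 1 to 3 to 2 in both resistant groups, while the parental groups had different orders. Resistant minus parental, the share split differed by −7.32 percentage points with the stricter q, −13.9 at the same joining distance and −30.7 to −22.6 with a library left out, mean covered bases by 449.5 to 590.0 bp, and regions called by Fisher's exact test ranged from 0 to 115. The log2 difference between phenotypes changed sign with smallest width as a covariate at ECE1 (−0.036), CDKN2C (−0.0325), KLF15 (−0.13), H2BC11 (−0.22), TRIM8 (−0.28), LCMT1P1 (−0.13) and POLG2 (−0.00764), by span at CDKN2C (−0.00180) and LCMT1P1 (−0.0223), and after centring at PNKD (−0.0195), EIF4E (−0.10), EGR1 (−0.16), BRD2 (−0.11), ZNF398 (−0.0116) and KMT2A (−0.0099). The treatment difference of BRD2 in parental cells became 0.0703 after centring. Named regions gave 61 results with an adjusted p under 0.05 by limma in the main fit. Of these, 16 still passed after centring, 16 with smallest width and 13 with relative depth as a covariate. Another 38, 38 and 48 kept their sign without passing, so most named differences depended on these settings. The causes were not tested. Of 319 values of 15 results, 259 were labelled the same. That meant counts or shares equal to or within 1.5 times the main value, or library differences that moved by less than the spread between libraries. Values of 0 that stayed 0 are included, so the total does not measure how stable the shares above 0 were. The depth and joining alternatives were chosen after seeing the data.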
